A study of Mus musculus with 6 samples.

Results

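Water channels and gap junction channels of the mouse lens are described here through 6 genes chosen by name: the aquaporins Mip, Aqp1, Aqp4 and Aqp5 and the connexins Gja1 and Gja3. They are 6 of the 41449 rows of the expression table, and all 6 had a value in every library and passed the filter of a mean of at least 1 FPKM (a fragment count corrected for transcript length and for depth). RNA sequencing of whole lenses from mice aged 2 months gave 3 libraries for each genotype, and a library held the RNA of 2 lenses. The WT mice were C57BL/6, and the FNcKO mice carried a conditional knockout of fibronectin on a mixed C57BL/6, 129 and FVB/N background. The promoter that drives the Cre recombinase is not given in the sources used here. Strain background divides the libraries exactly as genotype does, so effects of the 2 cannot be told apart in any comparison below. The series asks what fibronectin, a matrix glycoprotein bound by integrins, does in the lens after birth.

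The lens has no blood vessels. Its inner cells live on a circulation of ions, water and small metabolites, which enters and leaves the cells through channels and passes between them through gap junctions. Aquaporins are membrane channels for water. Connexins assemble into hemichannels, and the hemichannels of neighbouring cells dock to form gap junctions. In the lens, a single layer of epithelial cells covers the front, and these cells differentiate into the elongated fiber cells that make up most of the tissue. Mip encodes aquaporin 0, the main membrane protein of fiber cells, which conducts water and joins cells. Aqp1 is the water channel best known from the lens epithelium, and it is also abundant in the ciliary body, the cornea, vessel endothelium and red blood cells. Aqp5 is found in lens epithelium and fibers, and Aqp4 is known mainly from glia, including Müller glia of the retina. Gja1 encodes connexin 43 of the epithelium, and Gja3 encodes connexin 46 of the fibers.

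The sequences around the RefSeq start sites of 4 members are shown to place each gene: Aqp1 because it is the member that passed the test below, Mip because it is the most abundant, and Gja3 and Gja1 as the fiber and the epithelial connexin. Each holds 250 bases before and 50 bases from the start site, 5′ to 3′ on the strand of the gene, from RefSeq on GRCm38.p6. Capitals mark matches, on either strand, to the letters TATAAA of the TATA box, to the letters GGGCGG of the GC box, to the letters TGCTGA of a Maf half-site and to the letters TGAGTCA of an AP-1 site, none of which overlapped another.
Aqp1, chr6:55336049-55336348, plus strand: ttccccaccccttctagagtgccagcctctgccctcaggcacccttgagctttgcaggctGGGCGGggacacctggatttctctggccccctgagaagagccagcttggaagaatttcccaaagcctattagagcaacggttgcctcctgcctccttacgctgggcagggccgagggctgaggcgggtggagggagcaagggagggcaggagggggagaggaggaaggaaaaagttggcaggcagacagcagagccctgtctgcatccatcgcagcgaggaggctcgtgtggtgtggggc
Mip, chr10:128225560-128225859, plus strand: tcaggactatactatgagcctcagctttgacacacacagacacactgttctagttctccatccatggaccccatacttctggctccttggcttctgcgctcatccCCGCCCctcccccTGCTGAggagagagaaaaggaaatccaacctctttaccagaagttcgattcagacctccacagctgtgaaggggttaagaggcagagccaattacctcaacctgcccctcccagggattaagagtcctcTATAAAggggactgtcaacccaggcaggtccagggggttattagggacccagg
Gja3, chr14:57057981-57058280, minus strand, the first of its RefSeq windows: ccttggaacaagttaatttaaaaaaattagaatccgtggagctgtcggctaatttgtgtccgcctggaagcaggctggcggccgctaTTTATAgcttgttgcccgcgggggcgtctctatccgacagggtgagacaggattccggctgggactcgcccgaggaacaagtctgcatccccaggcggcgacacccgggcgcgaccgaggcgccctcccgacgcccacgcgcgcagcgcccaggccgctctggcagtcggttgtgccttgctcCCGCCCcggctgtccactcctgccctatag
Gja1, chr10:56377050-56377349, plus strand: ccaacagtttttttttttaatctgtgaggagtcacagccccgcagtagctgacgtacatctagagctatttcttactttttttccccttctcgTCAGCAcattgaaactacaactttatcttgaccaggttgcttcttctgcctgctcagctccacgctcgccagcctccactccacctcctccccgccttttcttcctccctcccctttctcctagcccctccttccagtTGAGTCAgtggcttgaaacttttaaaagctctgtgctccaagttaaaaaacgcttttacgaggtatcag
Of 32851 mouse windows of the same length, 13.6% held TATAAA, 35.7% GGGCGG, 19.5% TGCTGA and 5.20% TGAGTCA. Aqp1 had GGGCGG 190 bases before its start and none of the other motifs. In Mip, TATAAA lay 3 bases before the RefSeq start and 31 bases before the GENCODE start. Mip also had TGCTGA 132 bases and GGGCGG, on the opposite strand, 145 bases before the RefSeq start. Gja1 had TGAGTCA 19 bases before its start and TGCTGA, on the opposite strand, 157 bases before it. Gja3 had TATAAA, on the opposite strand, 163 bases before its start, and GGGCGG, on the opposite strand, 20 bases after it. The GC content was 62.7% for Aqp1, 53.3% for Mip, 63.3% for Gja3 and 47.7% for Gja1, against a median of 52.7% over all windows. No readout of promoter activity or binding was analysed here, so the matches describe letters only.

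Fragment numbers are not listed in the table, and depth was estimated from the steps between low values of single-exon genes. The WT libraries came to between 13600000 and 15950000 fragments and the FNcKO libraries to between 10000000 and 10750000. Whole multiples of a library's number match its values too, so the order of the libraries by depth is not settled. The targeted gene Fn1 was low in both genotypes, at 0.135, 0.188 and 0.253 FPKM in WT and 0.128, 0.0482 and 0.0942 FPKM in FNcKO, with no overlap (exact two-sided permutation test, p = 0.1, the smallest that 3 against 3 allows). The FPKM total over complete rows was 1.19 times as high in WT, and it entered the comparisons as a scaling alternative. Lens markers were present, as 6 of 6 lens epithelium markers and 7 of 7 lens fiber markers had a mean of at least 1 FPKM. The summed fiber markers, without the 1 that has no value in WT replicate 2, stood at 12966 to 13744 FPKM in WT and 13199 to 14084 in FNcKO, and the summed epithelium markers at 86.1 to 93.2 and 83.0 to 98.4 FPKM. Both sums overlapped between genotypes.

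Of the 6 channel genes, 1 passed the test between genotypes (limma with Benjamini-Hochberg adjustment over 10149 genes, threshold 0.05): Aqp1, which was higher in FNcKO. Across all genes tested, 1.89% were called in either direction and 0.857% were called higher. At an unadjusted p under 0.05, Mip and Aqp1 passed, 2 of 6, beside 18.1% of all genes. WT and FNcKO values did not overlap for 5 of the 6, with Mip, Aqp1 and Gja3 higher and Aqp4 and Aqp5 lower in FNcKO, beside 25.6% of all genes. The median log2 change of the 6 was 0.05, and that of all genes tested was -0.04. Log2 changes are FNcKO minus WT on the log2(FPKM + 1) scale, and folds are ratios of mean FPKM. These are whole lenses, so more cells of a type and more RNA per cell cannot be told apart.

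**Figure D1:**
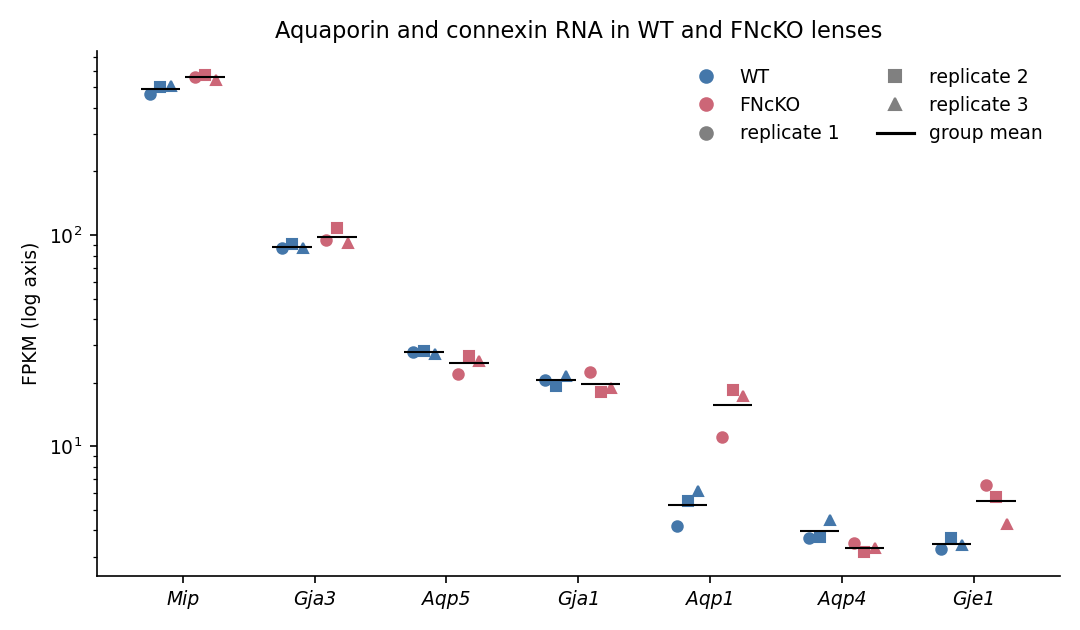
FPKM (log axis) of the 6 members and of Gje1 in each library, WT in blue and FNcKO in red, with marker shapes for replicates and a bar for each group mean. Mip stands between 464 and 575 FPKM in every library, while the FNcKO points of Aqp1, 11.1 to 18.4 FPKM, lie apart from its WT points, 4.19 to 6.14 FPKM.

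The 6 members and Gje1, a further connexin gene, were ranked by mean FPKM, a measure per length. WT lenses had Mip first at 492 ± 24.4 FPKM (SD, n = 3). Gja3 came next at 88.0 ± 1.96, then Aqp5 at 27.8 ± 0.454 and Gja1 at 20.5 ± 1.13, and each of these neighbours was separated from the next without overlap. Aqp1 at 5.27 ± 0.991 and Aqp4 at 3.95 ± 0.440 overlapped, so their order is not resolved by these libraries, and neither is that of Aqp4 and Gje1 at 3.45 ± 0.202. Mip exceeded Gja3 5.59-fold in WT and 5.71-fold in FNcKO. In FNcKO the sequence was Mip, Gja3, Aqp5, Gja1, Aqp1, Gje1 and Aqp4. There Aqp5 and Gja1 overlapped, as did Gja1 and Aqp1. Aqp1 stood 3.88-fold below Gja1 in WT and 1.27-fold below it in FNcKO.

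Among the aquaporins, Mip (chromosome 10, 128225810 to 128231812, plus strand) was the most abundant member. Its WT libraries held 464, 503 and 509 FPKM and its FNcKO libraries 560.5, 575 and 539 FPKM. Each FNcKO library lay above each WT library, by a margin that was small beside the level. The means were 492 ± 24.4 and 558 ± 17.9 FPKM (n = 3 each, ± SD), 1.13-fold higher in FNcKO. The log2 change was 0.18 (SE 0.073, 95% interval 0.0035 to 0.36), which did not pass (limma, adjusted p = 0.271, unadjusted p = 0.0469). Under the 15 alternatives fitted to the members, Mip kept a positive log2 change, from 0.14 to 0.61, with adjusted p between 0.108 and 0.503. As its groups did not overlap, only the scalings among these alternatives could turn its sign. The scalings gave 0.23 to 0.61, or 0.24 to 0.49 relative to the median of all genes.

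The value of Mip has a further limit in its last exon. Gm26847, annotated by GENCODE as a lincRNA on the opposite strand (chromosome 10, 128230590 to 128233382 in the table), shares 1223 exon bases with that exon, which is 1494 bases of a transcript of 2144 bases in 4 exons. The use of strand in counting is not given in the sources used here, so fragments of the pair cannot be told apart. Gm26847 was listed at 386, 439.8 and 417 FPKM in WT and at 436, 421 and 398 FPKM in FNcKO. Its groups overlapped, and its log2 change was 0.02 (limma, adjusted p = 0.943). The sum of both rows was 906 ± 49.6 FPKM in WT and 977 ± 33.9 FPKM in FNcKO (n = 3 each, ± SD), a log2 change of 0.11 (SE 0.078, limma adjusted p = 0.532), smaller than that of Mip alone. Gm26847 made up 45.7% ± 0.860 of the sum in WT and 42.8% ± 0.798 in FNcKO (n = 3 each, ± SD), without overlap (exact two-sided permutation test, p = 0.1, the smallest possible).

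**Figure D2:**
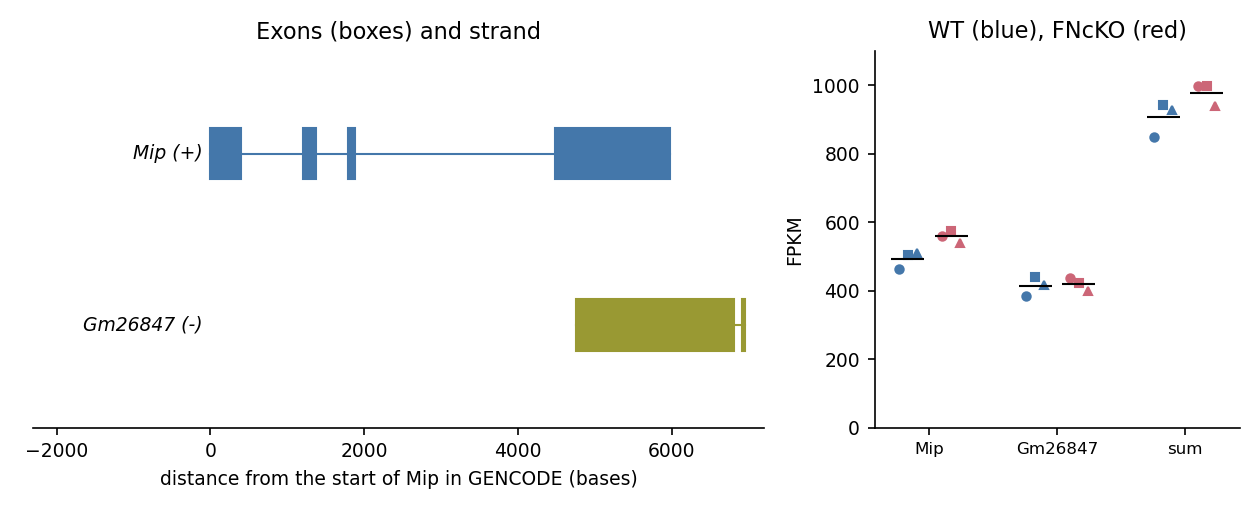
Left, exons (boxes) and strand of Mip and Gm26847 by distance in bases from the GENCODE start of Mip. Right, FPKM of each row and of their sum by library, WT in blue and FNcKO in red: WT and FNcKO points are apart for Mip and overlap for Gm26847 and for the sum.

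Aqp1 (chromosome 6, 55336299 to 55348555, plus strand) was the channel with the largest log2 change of the 6. It was listed at 4.19, 5.48 and 6.14 FPKM in WT and at 11.1, 18.4 and 17.3 FPKM in FNcKO. The lowest FNcKO value, in replicate 1, was still above the highest WT value. The means were 5.27 ± 0.991 and 15.6 ± 3.96 FPKM (n = 3 each, ± SD). The log2 change was 1.39 (SE 0.215, 95% interval 0.86 to 1.91; limma, adjusted p = 0.0432). At the estimated depths these values stand for about 162 to 203 fragments per WT library and 289 to 477 per FNcKO library, so counting error was small beside the difference. The call sat close to the threshold. It was lost without WT replicate 1, 2 or 3 (adjusted p = 0.142, 0.139 and 0.128) and without FNcKO replicate 2 or 3 (0.109 and 0.136), and it held without FNcKO replicate 1 (0.0243). It was also lost with no filter on low values (limma, adjusted p = 0.0910). The log2 change ran from 1.26 to 1.77 under the 15 alternatives. Of these, only the 4 scalings could turn its sign, as the groups did not overlap. All 4 kept the call, with 1.44 to 1.47 relative to the median of all genes.

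Aqp5 and Aqp4 had lower values in every FNcKO library, and neither passed the test. Aqp5 (chromosome 15, 99591028 to 99594829, plus strand) was listed at 28.0, 28.1 and 27.3 FPKM in WT and at 21.9, 26.9 and 25.4 FPKM in FNcKO. The FNcKO values were all lower, the highest of them by a margin of under 1 FPKM. The log2 change was -0.17 (SE 0.087, 95% interval -0.38 to 0.045; limma, adjusted p = 0.381). The predicted gene Gm34765 spans the locus of Aqp5 and was listed at 0.289 to 1.52 FPKM. Aqp4 (chromosome 18, 15389394 to 15410982, minus strand) was listed at 3.66, 3.73 and 4.45 FPKM in WT and at 3.48, 3.16 and 3.29 FPKM in FNcKO. Its groups were also apart, and its log2 change was -0.20 (SE 0.083, 95% interval -0.40 to 0.0064; limma, adjusted p = 0.285). Both turned positive when libraries were set to the same FPKM total, with or without crystallins. Those scalings moved the median of all genes to 0.15 and 0.29, and relative to that median Aqp5 stood at -0.077 and -0.048 and Aqp4 at -0.15 under both.

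**Figure D3:**
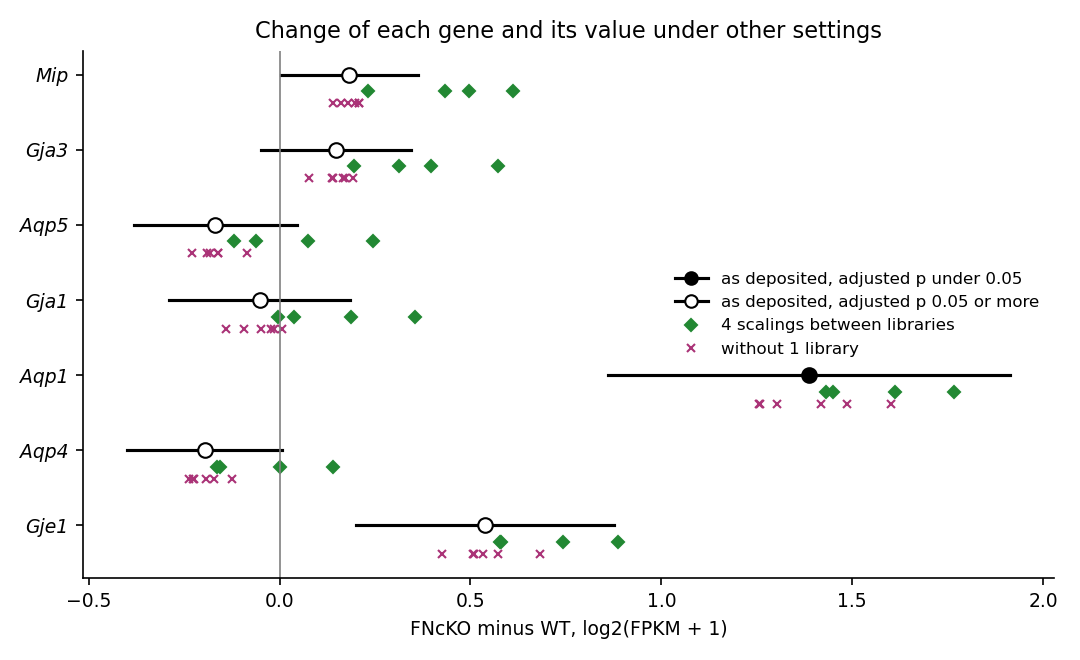
Log2 change, FNcKO minus WT on the log2(FPKM + 1) scale, of the 6 members and of Gje1, with 95% intervals from limma; small marks are the values under other settings. Aqp1 at 1.39 is the only filled point, meaning an adjusted p under 0.05, and the marks of Aqp4, Aqp5 and Gja1 fall on both sides of 0.

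Of the connexins, Gja3 (chromosome 14, 57034460 to 57058030, minus strand) was higher in each FNcKO library than in any WT library without passing the test. It was listed at 86.7, 90.3 and 87.0 FPKM in WT and at 94.3, 107 and 91.5 FPKM in FNcKO, where replicate 2 was the highest. The means were 88.0 ± 1.96 and 97.8 ± 8.51 FPKM (n = 3 each, ± SD), 1.11-fold. The log2 change was 0.15 (SE 0.080, 95% interval -0.049 to 0.34; limma, adjusted p = 0.404), and it ran from 0.078 to 0.57 under the 15 alternatives. As the groups did not overlap, only the 4 scalings could turn its sign. They gave 0.20 to 0.57, or 0.20 to 0.31 relative to the median of all genes. Gja1 (chromosome 10, 56377300 to 56390419, plus strand) overlapped between genotypes, at 20.5, 19.3 and 21.6 FPKM in WT and 22.4, 18.1 and 18.8 FPKM in FNcKO. FNcKO replicate 1 had the highest value of all 6 libraries and FNcKO replicate 2 the lowest. The log2 change was -0.05 (SE 0.096, 95% interval -0.29 to 0.18; limma, adjusted p = 0.822), which corresponds to 0.819 to 1.14 times the WT level on the log2(FPKM + 1) scale. Its sign turned without FNcKO replicate 2, to 0.0057, and under 3 of the 4 scalings, and relative to the median of all genes those 3 gave 0.032 to 0.062.

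The other connexins and pannexins listed numbered 20, of which 7 were at 0 in every library with a value and 1, Gje1, passed the filter. It was not called (limma) and had an unadjusted p of 0.00809. Gje1, which encodes connexin 23, stood at 3.27, 3.67 and 3.42 FPKM in WT and 6.56, 5.74 and 4.29 FPKM in FNcKO. All 3 FNcKO values of Gje1 were above the WT values, 1.6-fold by the means, with a log2 change of 0.54 (SE 0.138, 95% interval 0.20 to 0.88; limma, adjusted p = 0.132). The row 1700016L04Rik spans Gje1, so fragments of the 2 may be shared. Below the filter, and named after their values were seen, Gjb6 (connexin 30) was at 0.273, 0.542 and 0.515 FPKM in WT and 0.580, 1.70 and 1.56 FPKM in FNcKO. Panx2, a pannexin, was at 0.433, 0.321 and 0.345 against 0.664, 0.560 and 0.574 FPKM. Of the 19 connexins and pannexins below the filter, only Gjb6 and Panx2 had groups that did not overlap, beside 25.6% of all genes tested. Their levels were low: Panx2 stayed under 1 FPKM in every library, and Gjb6 passed 1 FPKM in FNcKO replicates 2 and 3. With no filter on low values, neither was called (limma, adjusted p = 0.405 for Gjb6 and 0.332 for Panx2).

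None of the 8 other aquaporins listed reached a mean of 1 FPKM, and Aqp2 and Aqp6, the first known from the collecting duct of the kidney, were listed at 0 in all 6 libraries. The highest single value among the 8 was 0.661 FPKM, of Aqp11. The water channel RNA of these lenses was therefore made up almost wholly of the 4 members. Mip held 92.8% ± 0.206 of the summed aquaporin FPKM in WT and 92.6% ± 0.971 in FNcKO (n = 3 each, ± SD; exact two-sided permutation test, p = 0.8). Aqp1 held 0.990% ± 0.144 in WT and 2.58% ± 0.634 in FNcKO, Aqp5 5.25% ± 0.311 and 4.10% ± 0.38, and Aqp4 0.744% ± 0.0632 and 0.550% ± 0.0393. The shares of these 3 did not overlap between genotypes (exact permutation p = 0.1 for each, the smallest possible). The summed aquaporin FPKM was 530.0 ± 25.1 in WT and 603 ± 19.8 in FNcKO (exact permutation p = 0.1). The sum and the 4 shares were 5 comparisons, and with 3 libraries a genotype none could reach a p below 0.1.

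A ratio of 2 genes within a library does not change when the library is multiplied by 1 factor. Quantile normalization is not such a scaling, and the ratios were not computed under it. Ratios to a marker level were taken on the log2(FPKM + 1) scale, so they can shift with scaling where values are low. In all, 8 ratios were tested by exact two-sided permutation, with Benjamini-Hochberg adjustment over the 8. The log2 ratio of Mip to Aqp5 was 4.14 ± 0.0878 in WT and 4.50 ± 0.153 in FNcKO (n = 3 each, ± SD; exact p = 0.1, adjusted p = 0.267), higher in every FNcKO library. The log2 ratio of Aqp1 to Aqp5 was -2.42 ± 0.30 in WT and -0.69 ± 0.250 in FNcKO (exact p = 0.1, adjusted p = 0.267), also without overlap. Thus within each library Aqp1 was closer to Aqp5 in FNcKO, whatever factor each library is multiplied by. Mip relative to the mean log2 level of 6 fiber markers differed by 0.17, with every FNcKO library above every WT library (exact p = 0.1, adjusted p = 0.267). Against the same markers Gja3 differed by 0.14 and Aqp5 by -0.18, both with overlap (exact p = 0.2 and adjusted p = 0.32 for each). The log2 ratio of Gja3 to Gja1 differed by 0.20 with overlap (exact p = 0.3, adjusted p = 0.4). Gja1 relative to 6 epithelium markers differed by -0.049 (exact p = 0.8, adjusted p = 0.8), with overlap.

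**Figure D4:**
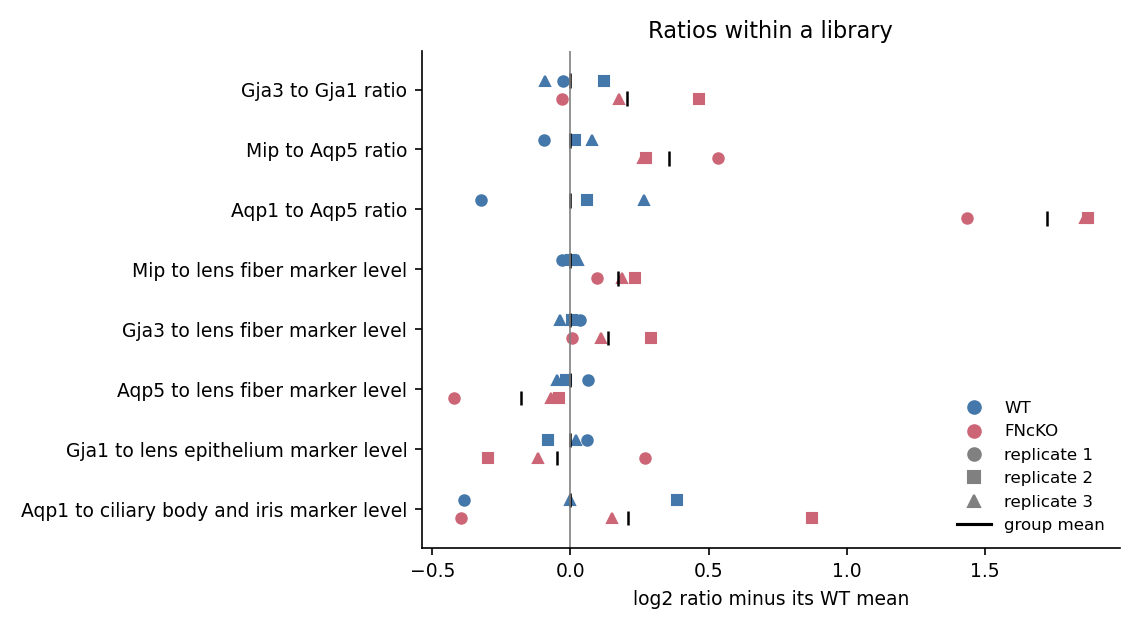
Log2 ratios within a library, each shown as its difference from the WT mean, for the 8 ratios tested; WT in blue, FNcKO in red, marker shapes for replicates. The FNcKO points of Aqp1 to Aqp5, Mip to Aqp5 and Mip to the fiber markers lie to the right of all WT points, and the other 5 ratios overlap.

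Genes that work with these channels were listed as junction and channel partners, among them scaffolds, calmodulins and kinases. Of 24 listed, 23 were tested and none was called (limma), 5 had an unadjusted p under 0.05 (3 higher and 2 lower), beside 18.1% of all genes, and the median log2 change was -0.04. The groups did not overlap for 10 of the 23, beside 25.6% of all genes. Calm2, a calmodulin gene whose protein binds aquaporin 0 and connexins, stood at 76.4, 73.5 and 77.8 FPKM in WT and 67.2, 61.8 and 59.1 in FNcKO, a log2 change of -0.27 (limma, adjusted p = 0.137). Prkca, which encodes a protein kinase C, stood at 1.72, 1.71 and 1.62 FPKM in WT and 2.05, 2.17 and 2.12 in FNcKO, a log2 change of 0.21 (limma, adjusted p = 0.172). For both genes the groups were apart, in opposite directions.

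A list of 28 genes of osmotic and volume regulation had 17 tested, none called (limma) and 4 with an unadjusted p under 0.05 (2 higher and 2 lower), beside 18.1% of all genes, with a median log2 change of -0.01. The groups did not overlap for 5 of the 17, beside 25.6% of all genes. Slc12a2, which encodes the sodium, potassium and chloride cotransporter NKCC1, was at 6.12, 6.61 and 7.53 FPKM in WT and 4.83, 5.37 and 4.78 in FNcKO, a log2 change of -0.37 (limma, adjusted p = 0.113). Slc6a6, which encodes the taurine transporter, was at 17.1, 14.2 and 21.1 FPKM in WT and 30.0, 25.3 and 24.9 in FNcKO, a log2 change of 0.60 (limma, adjusted p = 0.134). The first was lower and the second higher in every FNcKO library.

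Aqp1 is also a gene of neighbouring tissues, and their markers were read beside it. Of 4 ciliary body and iris markers, 2 had a mean of at least 1 FPKM, and the sum over the 3 with a value in every library, Zic1 not among them, was 15.0 to 21.5 FPKM in WT and 32.3 to 50.4 in FNcKO, which did not overlap. Optc (opticin, made by the ciliary body) was at 19.8, 14.2 and 20.8 FPKM in WT and 47.7, 31.4 and 49.5 in FNcKO (limma, adjusted p = 0.0682), and Zic1 at 1.11 ± 0.0511 FPKM in WT (n = 2) and 1.47 ± 0.584 in FNcKO (n = 3). Zic2 was at 0.624 and 1.07 FPKM in the means of WT and FNcKO, without overlap, and Myoc at 0.0610 and 0.0175 FPKM, with overlap. Aqp1 and Optc were both higher in every FNcKO library than in any WT library. Within FNcKO, replicate 2 had the highest Aqp1 and the lowest Optc, and whether the 2 genes vary together was not tested. The log2 ratio of Aqp1 to the level of this list, which rested on Optc alone, was -1.61 ± 0.387 in WT and -1.40 ± 0.638 in FNcKO (n = 3 each, ± SD; exact p = 0.7, adjusted p = 0.8). A ratio to 1 marker over 3 libraries a genotype cannot decide the part of ciliary body tissue in the Aqp1 result, which was not tested.

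Of 8 corneal markers, 1 had a mean of at least 1 FPKM, and Krt12 and Kera, which define corneal epithelium and keratocytes, were at 0 in every library. The sum was 25.7 to 30.7 FPKM in WT and 13.6 to 43.4 in FNcKO, nearly all of it Aldh3a1, at 25.6, 28.2 and 30.7 FPKM in WT and 13.6, 43.3 and 41.4 in FNcKO, beside Dcn at 0.0672 and 0.08 FPKM. Aldh3a1 and Aqp1 were both lowest of the FNcKO libraries in replicate 1, and Aldh3a1 overlapped between genotypes. Of 8 endothelial markers, 1 had a mean of at least 1 FPKM and 4 (Cdh5, Tie1, Emcn and Cldn5) were at 0 in every library. Their sum was 1.17 to 1.38 FPKM in WT and 1.35 to 2.00 in FNcKO, with Egfl7 at 1.04 and 1.40 FPKM and Kdr at 0.122 and 0.13 FPKM in the means. Egfl7 was higher in every FNcKO library than in any WT library (limma, adjusted p = 0.292), and Kdr and the sum overlapped. None of 5 red blood cell markers reached a mean of 1 FPKM, and the sum over the 4 with a value in every library was 0 to 0.972 in WT and 0.884 to 1.82 in FNcKO, led by Hba-a2 and Hba-a1 at 0.146 and 0.212 FPKM in WT and 0.489 and 0.396 in FNcKO. In every library Aqp1 was above the sum of the endothelial markers and above that of the red blood cell markers. FPKM of different genes do not compare amounts of cells, and the part of these tissues in the Aqp1 result was not tested.

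Of the markers of the remaining tissues, 1 passed the test, Gnat1 of photoreceptors. Of 5 smooth muscle and pericyte markers, 1 had a mean of at least 1 FPKM; their sum was 93.2 to 105.4 FPKM in WT and 64.5 to 77.5 in FNcKO, nearly all of it Acta2 at 99.3 ± 6.06 and 70.8 ± 6.54 FPKM (limma, adjusted p = 0.0702), with Myh11 at 0.115 and 0.137 and with Des and Cnn1 below 0.1 FPKM. Of 8 pigment cell markers, 2 had a mean of at least 1 FPKM, Ttr at 8.85 ± 2.87 and 3.68 ± 0.755 FPKM and Oca2 at 2.2 ± 0.407 and 1.2 ± 0.0734, and the sum was 11.6 to 19.0 FPKM in WT and 6.67 to 8.46 in FNcKO. For Aqp4, a gene of Müller glia, 3 of 6 glial markers had a mean of at least 1 FPKM, and their sum was 116 to 171 FPKM in WT and 176 to 277 in FNcKO, led by Apoe at 136 ± 27.3 and 201 ± 50.9 FPKM and Glul at 9.60 ± 1.93 and 11.4 ± 2.23, with Kcnj10 below 0.1 FPKM. The sum was mostly Apoe, and both the sum and Apoe were higher in every FNcKO library than in any WT library (limma for Apoe, adjusted p = 0.279). Gfap and Rlbp1 had lower means in FNcKO, with overlap, and Slc1a3 a higher one without overlap: Slc1a3 stood at 0.731 ± 0.0757 and 1.22 ± 0.250 FPKM, Gfap at 1.79 ± 0.212 and 1.41 ± 0.515 FPKM and Rlbp1 at 1.21 ± 0.461 and 0.78 ± 0.355 FPKM. Of 6 photoreceptor markers, all had a mean of at least 1 FPKM, and over the 5 with a value in every library the sum was 11.2 to 34.5 FPKM in WT and 18.8 to 20.9 in FNcKO. Among the 6, Gnat1, which is not in that sum, was lower in FNcKO, at 18.9 and 22.2 FPKM in WT replicates 1 and 3 (replicate 2 has no value) and 8.84 to 9.77 FPKM in FNcKO (limma, adjusted p = 0.0215). WT replicate 2, the library that Gnat1 lacks, was the lowest WT library for the other 5, which overlapped between genotypes, among them Sag at 14.7, 6.07 and 18.6 FPKM in WT and 13.5, 12.3 and 11.5 in FNcKO. Their part in the results of the channel genes was not tested.

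**Figure D5:**
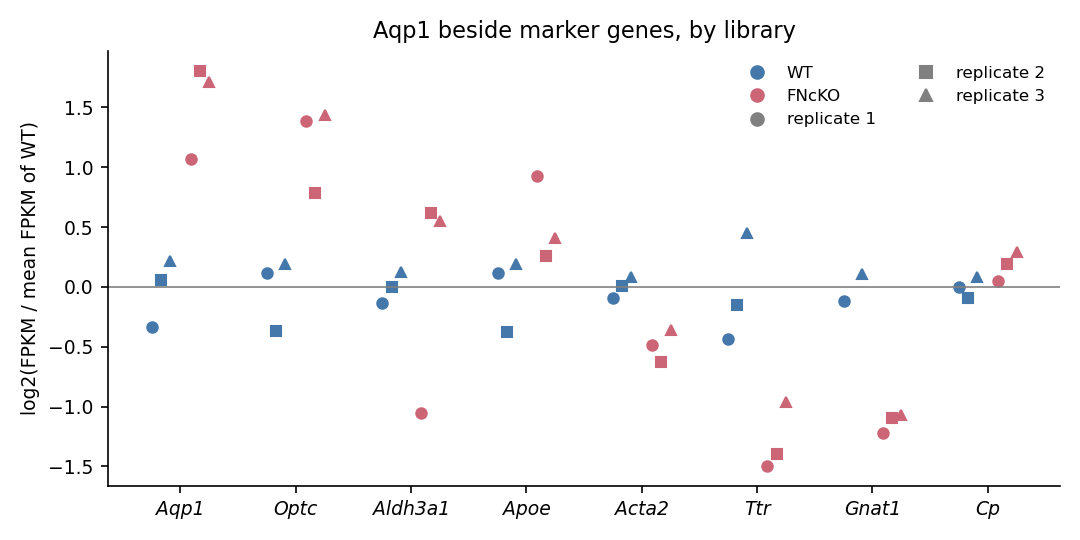
Log2 of FPKM over the WT mean for Aqp1 and 7 marker genes of eye tissues and lens epithelium, by library (WT in blue, FNcKO in red; Gnat1 has no value in WT replicate 2). Aqp1, Optc and Apoe are higher in every FNcKO library than in any WT library, and Acta2, Ttr and Gnat1 are lower. Aldh3a1 is spread from 13.6 to 43.3 FPKM within FNcKO and overlaps between genotypes, as does Cp.

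For each member, the genes with the most similar pattern over the 6 libraries were found as those with the smallest root mean square difference of centred log2(FPKM + 1), among 7589 genes. The values are a description over 6 libraries that share genotype, depth and scaling. For Aqp1 these were Fndc1 (0.181), Tpm4 (0.189) and Hist1h2al (0.212), against a root mean square of 0.739 for the pattern of Aqp1 itself. Tpm4, a tropomyosin of the actin cytoskeleton, was at 18.6, 18.5 and 19.7 FPKM in WT and 43.8, 53.5 and 48.9 in FNcKO. Fndc1 was at 0.175, 0.0918 and 0.143 FPKM in WT and 1.48, 3.17 and 2.62 in FNcKO, so it was near the filter. Hist1h2al, one of many similar histone genes whose fragments may be shared, was at 5.19 to 5.92 FPKM in WT and 15.7 to 18.3 in FNcKO. For Mip the closest were Map1lc3b (0.0198), Arhgef28 (0.0240) and Lats1 (0.0242), for Aqp5 Stx12 (0.0248), Mllt3 (0.0291) and Lancl1 (0.0305), and for Aqp4 Cops7a (0.00756), Mllt6 (0.0209) and Golph3 (0.0234). For Gja3 they were Mboat1 (0.0219), Tmem184b (0.0273) and Top3b (0.0277), and for Gja1 Fnta (0.0219), Plcl2 (0.0303) and Surf1 (0.0330).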

How the data were processed

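Total RNA from whole lenses (6 libraries, 3 WT and 3 FNcKO, grouped by sample title) was sequenced after stranded library preparation with a kit for very small inputs, per the labels' protocols. FPKM values were computed by the authors and deposited as 1 table. FastQC, cutadapt 1.12, TopHat2 2.1.0 and Cuffdiff 2.2.1, with builds mm10 and GRCm38.p5, are named in the submitters' processing notes. For their order, the annotation, scaling and strand use, details are not given in the sources used. WT replicate 2 had no value in 3578 of 41449 rows (8.63%), none of them a member.

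From the deposited FPKM, log2(FPKM + 1) was computed for genes whose mean reached 1 FPKM and compared with limma 3.58.1 in R 4.3.3 (trend, two-sided, Benjamini-Hochberg over 10149 genes). A gene without a value in a library was fitted on the others. Single values and ratios were compared by exact permutation with scipy 1.17.1. The fit was tested on simulated data. Depth was searched with 200 bases taken off each length. At the best depth, 82.4% to 97.0% of values per library came within 0.15 of whole fragments, where 30% would by chance at a fixed depth. Gene models came from GENCODE and sequences from RefSeq. The starts of the table were moved by 1 base, so that positions count from 1.

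The members and lists were chosen with earlier results of these data known. The rule for names took the members, the list genes past the test or the 2 with the smallest p, the 2 most abundant of each marker list and the 3 genes most alike to each member. Alternatives were another pseudocount (0.1), other filters (none, or a mean of 5 FPKM), 4 scalings, no trend, a replicate block and leaving out each library. Some genes that the lists take are not reported here. P-values set the difference between the groups against the spread between these samples, and they do not separate genotype from strain background.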

Additional observations from a re-analysis of the deposited data

How the results depend on the processing

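The number of the 6 channel genes called was 1, and it was 0 with no filter on low values and with the replicate block, and 0 to 1 when single libraries were left out. The called gene was Aqp1, whose log2 change stayed positive under all 15 alternatives. Only the 4 scalings among them could turn its sign, as its groups did not overlap. The replicate numbers did not pair the samples (correlations of deviations from -0.055 to -0.027, and no library correlated best with its own number). With the replicate block the adjusted p of Aqp1 was 0.0695, and over all genes 14 calls were made instead of 192. The unadjusted p of Aqp1 (limma) was 0.00015 with the block, 0.000772 with no filter and 0.000677 in the main fit. With the block, therefore, only its adjusted p was higher. Single libraries left out gave 48 to 111 calls over all genes, and no filter on low values 101. The cause of the fewer calls over all genes was not tested.

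Signs turned for 3 genes that were not called. Aqp4 was at 0.0011 with the same FPKM total and 0.14 with that total without crystallins, and Aqp5 at 0.076 and 0.25. Gja1 was at 0.037 with quantile normalization, 0.19 with the same total and 0.36 with that total without crystallins, and from -0.14 to 0.0057 with single libraries left out. Gja1 relative to the epithelium markers ran from -0.21 to 0.077 and Aqp1 relative to the ciliary level from -0.12 to 0.51 with single libraries left out. Of all genes called, 45.3% were higher in FNcKO as deposited, 57.8% with median-ratio scaling, 58.1% with quantile normalization, 72.0% with the same total and 77.0% with that total without crystallins, where 93 and 87 genes were called. No other connexin, pannexin, partner or osmotic gene was called under any of the alternatives. The 8 other aquaporins passed no filter, and with no filter none was called. Under the filter of 5 FPKM, Aqp4 and the other connexins and pannexins have no value. Mip summed with Gm26847 was an alternative chosen after seeing the data.

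FPKM keep no counts, so depth limits the low genes: Aqp4 rests on about 160 to 294 fragments per library at the estimated depths.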
